A study of Mus musculus with 12 samples.

Results

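The cytochrome P450 genes of mouse liver are described here in the same RNA prepared with a whole transcript kit and with a 3′ kit. Members were the protein-coding genes whose symbol starts with Cyp and a digit. There were 84 of them among the 27022 genes of the count table, out of 100 such genes in the GENCODE M21 annotation, and the other 16 were not analysed here. They belonged to 14 families and 34 subfamilies. RNA came from the large liver lobe of 6 female SJL/J mice, which were 11 weeks old at collection, had been fasted from the morning and were perfused with phosphate buffered saline. The 3 control mice ate an AIN-93G diet with 50 ppm iron from their arrival at 3 weeks of age, and the 3 iron-loaded mice were moved from that diet at 6 weeks to an AIN-93G diet with 2% carbonyl iron. Mice were housed 4 to a cage and each diet was fed to 1 cage, so diet and cage cannot be told apart. The RNA of each mouse went into 1 KAPA Stranded mRNA-Seq library (Trad-KAPA), which reads along the whole transcript, and 1 Lexogen QuantSeq 3′ mRNA-Seq FWD library (3’-LEXO), which reads near the 3′ end, giving 12 libraries with 3 per kit and diet.

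Cytochrome P450s are heme enzymes that insert an oxygen atom into lipophilic substrates, using electrons that most of the liver enzymes receive from NADPH-cytochrome P450 reductase. Members of families CYP1 to CYP3 act mainly on drugs, toxins and steroids and lie in clusters of close copies. CYP4 enzymes hydroxylate fatty acids and eicosanoids, and most of the remaining families have narrow tasks. Among these are the synthesis of cholesterol, bile acids and steroid hormones, the activation of vitamin D and the breakdown of retinoic acid. In the mouse, many of them differ between the sexes and along the liver lobule, and their transcription is set by nuclear receptors such as CAR, PXR, PPAR-alpha and FXR.

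Trad-KAPA libraries held 13834682 to 16553616 counts and 3’-LEXO libraries 10724672 to 14104236. The mice of the iron-loaded group were not equally far apart. Iron-loaded mice 2 and 3 were closer to each other than any other pair of a group, and their members' counts gave chi-square values per degree of freedom of 1.64 (Trad-KAPA) and 17.7 (3’-LEXO), against 74.1 to 252 for the other pairs. Over all genes they stood at 5.98 and 5.97, where counting noise alone gives 1, and were kept as separate mice. Iron-loaded mouse 1 lay more than 2-fold from the mean of mice 2 and 3, taken on log2(level + 0.1), for 12 of the 65 members tested with Trad-KAPA and for 14 of the 59 tested with 3’-LEXO, whereas any other mouse of either diet did so for 2 to 8. Counts of members that differ are therefore also given without mouse 1 and with mice 2 and 3 summed. Hepatocyte markers fitted the label of liver: 8 markers, among them the transcript of albumin, summed to 173828 to 186388 TPM (length-scaled transcript levels) in the control mice and 157813 to 201235 in the iron-loaded mice, and none of the 8 differed between diets in either kit. The label of female sex was also checked in the members. Cyp4a12a, a male-specific gene, had at most 3 counts in any library, whereas Cyp2b9, a female-predominant gene, lay between 568 and 898 TPM. All 10 members of the female-predominant list had enough counts to be tested with Trad-KAPA. Of the male-predominant list, Cyp2d9, Cyp7b1 and Cyp2u1 were also read, with means over 6 mice of 49.4, 19.6 and 10.6 TPM. The check thus rests mainly on Cyp4a12a.

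Promoter windows are shown for members whose level differed between diets, among them pairs of close copies. Of the 84 members, 66 had a window in the RefSeq promoter table (GRCm38.p6), and the 250 bases before the start site are printed 5′ to 3′. Cyp8b1, on the minus strand at chr9:121916306-121916555, and Cyp51, on the minus strand at chr5:4104698-4104947, encode enzymes of bile acid and of cholesterol synthesis. Cyp2c40 (chr19:39812815-39813064, minus strand) and Cyp2c69 (chr19:39886770-39887019, minus strand) are neighbours on chromosome 19. Capitals mark matches on either strand to TATAAA (the TATA box), AGGTCA (the core that many nuclear receptors bind), CAAAGTCCA (a core bound by the liver factor HNF4-alpha) and ATCACCTCA (an element of the type bound by SREBP, the regulator of cholesterol synthesis), which were chosen after the windows had been seen.
Cyp8b1: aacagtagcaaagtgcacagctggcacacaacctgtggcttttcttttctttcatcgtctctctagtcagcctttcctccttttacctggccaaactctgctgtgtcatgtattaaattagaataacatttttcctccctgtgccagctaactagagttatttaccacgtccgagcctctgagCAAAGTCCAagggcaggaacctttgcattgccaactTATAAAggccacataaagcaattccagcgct
Cyp51: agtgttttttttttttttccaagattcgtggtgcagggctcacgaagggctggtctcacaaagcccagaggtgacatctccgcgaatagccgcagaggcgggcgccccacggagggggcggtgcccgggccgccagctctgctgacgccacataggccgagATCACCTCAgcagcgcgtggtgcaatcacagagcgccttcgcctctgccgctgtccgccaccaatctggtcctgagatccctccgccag
Cyp2c40: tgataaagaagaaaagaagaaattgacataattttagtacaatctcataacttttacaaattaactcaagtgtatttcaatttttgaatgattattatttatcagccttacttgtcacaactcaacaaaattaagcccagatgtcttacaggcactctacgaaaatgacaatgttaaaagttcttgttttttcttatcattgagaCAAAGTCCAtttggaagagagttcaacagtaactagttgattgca
Cyp2c69: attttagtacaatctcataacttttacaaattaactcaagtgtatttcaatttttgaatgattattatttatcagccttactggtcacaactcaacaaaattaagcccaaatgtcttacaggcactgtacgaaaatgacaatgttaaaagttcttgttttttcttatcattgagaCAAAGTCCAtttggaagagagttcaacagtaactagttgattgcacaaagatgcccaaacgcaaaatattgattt
TATAAA stood 31 bases and CAAAGTCCA 67 bases before the start of Cyp8b1, and ATCACCTCA stood 89 bases before the start of Cyp51. CAAAGTCCA stood 45 bases before the start of Cyp2c40 and 75 before that of Cyp2c69, whose windows differed in 3 of 220 bases when shifted by 30 bases. These distances use the RefSeq starts. In GENCODE M21 Cyp2c69 starts at 39886799 and Cyp51 at 4104746, each inside its printed window. The shift between Cyp2c40 and Cyp2c69 thus depends on the start annotation. TATAAA was in 12.97% of the windows of all 27025 genes and in 40.9% of the windows of members. AGGTCA was in 13.8% of all windows and in 18.2% of those of members, and ATCACCTCA was in 0.170% of all windows and, among members, only in that of Cyp51. CAAAGTCCA was in 103 windows of all genes (0.381%) and in 10 windows of members (15.2%), namely Cyp8b1, Cyp3a11, Cyp3a16, Cyp3a41a, Cyp3a41b, Cyp2c40, Cyp2c67, Cyp2c68, Cyp2c69 and Cyp2c70, several of which are copies of each other. A match describes these letters and shows no binding.

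Cyp2b9 (chr7:26173159-26173408) and Cyp2b13 (chr7:26061245-26061494), both on the plus strand and 77.2 kb apart, have nearly the same promoter window, and the 2 of 250 bases that differ are in capitals.
Cyp2b9: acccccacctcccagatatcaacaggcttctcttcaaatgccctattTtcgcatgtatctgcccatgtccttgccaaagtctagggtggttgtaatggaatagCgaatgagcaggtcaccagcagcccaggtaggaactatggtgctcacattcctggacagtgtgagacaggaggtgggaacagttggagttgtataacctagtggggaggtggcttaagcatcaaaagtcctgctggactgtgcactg
Cyp2b13: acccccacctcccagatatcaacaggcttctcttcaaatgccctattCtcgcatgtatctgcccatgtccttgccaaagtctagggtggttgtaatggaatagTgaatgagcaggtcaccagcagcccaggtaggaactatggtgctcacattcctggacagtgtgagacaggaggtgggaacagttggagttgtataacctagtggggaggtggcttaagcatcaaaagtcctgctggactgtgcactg
Both windows hold AGGTCA 138 bases before the start. In their coding sequences the genes differ at 108 of 1476 bases, enough for reads to tell them apart.

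For other copies, reads could hardly be assigned. Cyp3a41a and Cyp3a41b, on the minus strand of chromosome 5 and 109.3 kb apart, differ at 2 of 1515 coding bases in the reference, which is a C57BL/6J genome while the mice were SJL/J. The windows of 51 coding bases around these differences, at coding positions 120 (exon 2) and 336 (exon 5), are shown with the differing base in capitals. The base at coding position 120 lies at chr5:145717970-145717970 in Cyp3a41a and at chr5:145582560-145582560 in Cyp3a41b, and that at 336 at chr5:145709141-145709141 and chr5:145573727-145573727 (GRCm38).
Cyp3a41a, position 120: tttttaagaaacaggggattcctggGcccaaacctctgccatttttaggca
Cyp3a41b, position 120: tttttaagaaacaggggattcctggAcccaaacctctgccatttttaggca
Cyp3a41a, position 336: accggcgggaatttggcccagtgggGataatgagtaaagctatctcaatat
Cyp3a41b, position 336: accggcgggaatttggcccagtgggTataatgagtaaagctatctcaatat
Because the deposited counts hold uniquely mapped reads, a read over shared sequence was counted for neither gene. Of the 50-base stretches of its transcripts, Cyp3a41a shared all but 1.39% and Cyp3a41b all but 6.501% with another gene, and the last 500 bases of both were shared throughout. Cyp2c40 had 39.7%, Cyp2c69 45.7% and Cyp2c67 47.2% of stretches of its own, and each of the other 79 members had at least 51.1%. In 19 members every stretch was their own. The counts of Cyp3a41a, Cyp3a41b, Cyp2c40, Cyp2c67 and Cyp2c69 are therefore uncertain, and their values leave out shared reads.

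Cyp transcripts made up a small and steady share of the counts. In Trad-KAPA they took 1.94%, 1.90% and 2.09% of the counts in control mice 1, 2 and 3 and 2.15%, 1.77% and 1.81% in iron-loaded mice 1, 2 and 3, with a mean of 1.98% ± 0.0981 and 1.91% ± 0.206 (SD, n = 3). In 3’-LEXO the means were 1.25% ± 0.0920 and 1.29% ± 0.117. The diets overlapped in both kits, and the exact two-sided permutation test gave p = 0.6 with Trad-KAPA and p = 0.7 with 3’-LEXO, where 3 against 3 mice cannot give a p below 0.1.

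Levels ranged from Cyp2e1, with 30.1% of the summed TPM of the members, to many genes that were barely read. Levels are given as TPM, counts per kilobase of merged exons scaled to a fixed sum per library, for Trad-KAPA and as CPM, counts scaled to the same sum without a length, for 3’-LEXO, where each transcript gives about 1 read site. In Trad-KAPA, 54 members had a mean of at least 10 TPM and 35 of at least 100. Cyp2e1, which oxidises ethanol and acetone in hepatocytes around the central vein, was the highest member in both kits, with 6685 ± 1442 TPM (SD over 6 mice) and 1713 ± 660 CPM. It was followed in Trad-KAPA by Cyp2d26 (1363 ± 100.3 TPM), Cyp2c39 (1044 ± 128 TPM), Cyp2f2 (1020 ± 291 TPM) and Cyp3a11 (913 ± 106 TPM), whose SDs overlapped from each to the next after Cyp2d26. These 5 genes held 49.6% of the summed TPM of the members. In 3’-LEXO, Cyp3a11, the main mouse counterpart of the drug-metabolising CYP3A4, reached 1659 ± 200 CPM and did not differ from Cyp2e1 beyond the spread, and Cyp3a25, Cyp2c70 and Cyp2c29 followed with 1124 ± 365, 604 ± 67.7 and 561 ± 49.6 CPM. At the low end, 19 members passed the count filter in neither kit and 6 more only with Trad-KAPA. No library held more than 10 counts of a member that failed with Trad-KAPA, or more than 13 of one that failed with 3’-LEXO. The 19 included Cyp11a1, Cyp11b1 and Cyp11b2 of adrenal and gonadal steroid synthesis, Cyp27b1, the kidney enzyme that activates vitamin D, and Cyp26a1 and Cyp26c1 of retinoic acid breakdown.

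**Figure D1:**
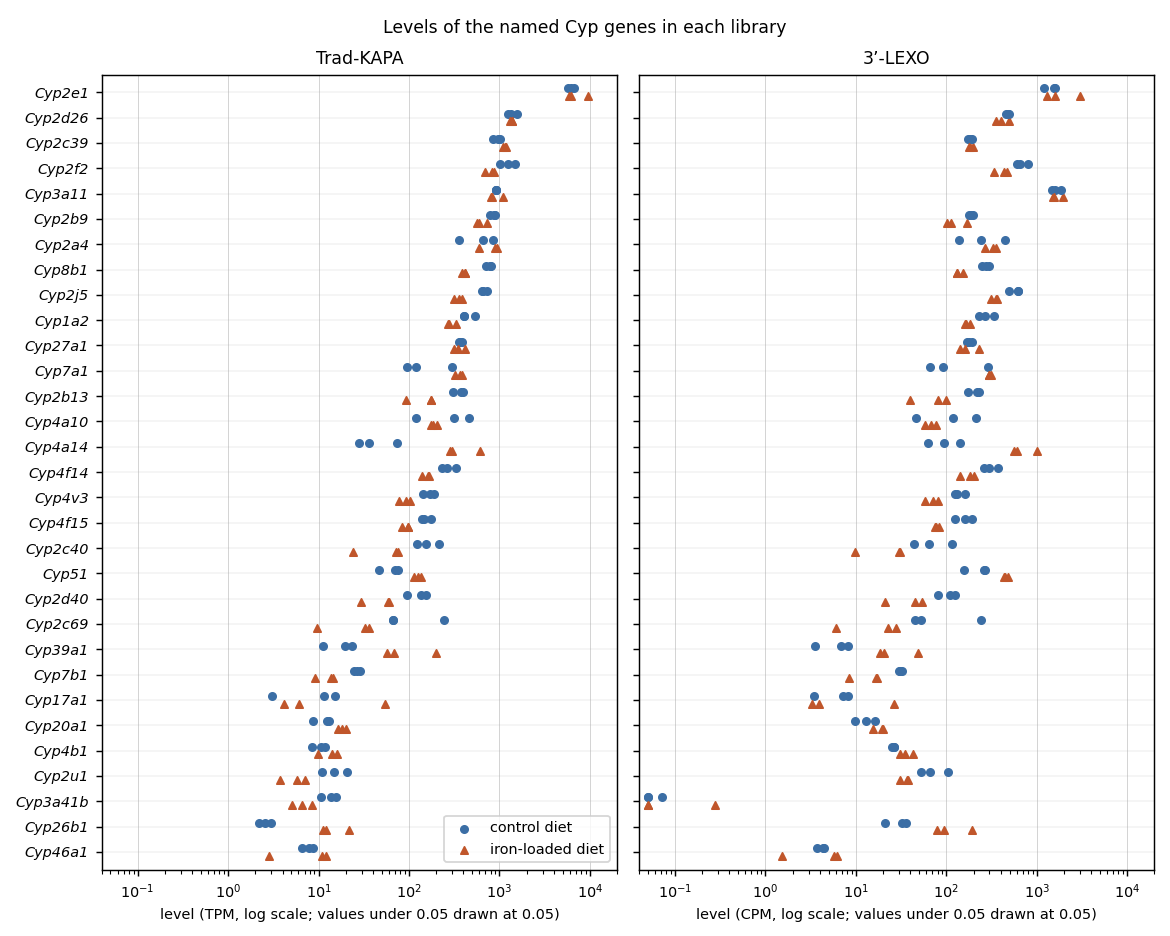
Level of 31 Cyp genes in each library on a log scale, as TPM in Trad-KAPA (left) and CPM in 3’-LEXO (right), with 3 control mice as circles and 3 iron-loaded mice as triangles. Cyp4a14, Cyp39a1 and Cyp26b1 are higher in all iron-loaded mice in both kits, Cyp8b1 is lower in all of them, and Cyp2e1 overlaps.

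The order of the subfamilies differed between the kits. Cyp2e held 30.1% of the summed TPM of the members, Cyp2c with 14 genes 17.6% and Cyp3a with 9 genes 11.1%, whereas of the summed CPM Cyp3a held 24.4%, Cyp2c 16.8% and Cyp2e 13.5%. The summed level of Cyp2b was 1223 ± 98.3 TPM in control and 781 ± 35.04 TPM in iron-loaded mice, and that of Cyp2j was 723 ± 50.5 and 392 ± 36.6 TPM. For Cyp4f the sums were 474 ± 33.0 and 288 ± 7.63 TPM. In these 3 subfamilies every iron-loaded mouse was below every control mouse in both kits. These are sums in which the members with most reads count most. The same held for Cyp1a, Cyp2c, Cyp2f, Cyp2u, Cyp4v, Cyp7b and Cyp8b. Cyp2c was at 4115 ± 234 TPM in control and 3709 ± 243 TPM in iron-loaded mice. Cyp7a, Cyp26b, Cyp39a and Cyp51 were higher in every iron-loaded mouse in both kits. The share of all genes whose groups separate in this way was not counted. Cyp3a and Cyp4a sums were higher in every iron-loaded mouse with 3’-LEXO, at 2744 ± 210 and 3456 ± 432 CPM for Cyp3a and at 226 ± 122 and 790 ± 241 CPM for Cyp4a, while their TPM overlapped between diets. Cyp2a, Cyp2e and Cyp27a overlapped in both kits.

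**Figure D2:**
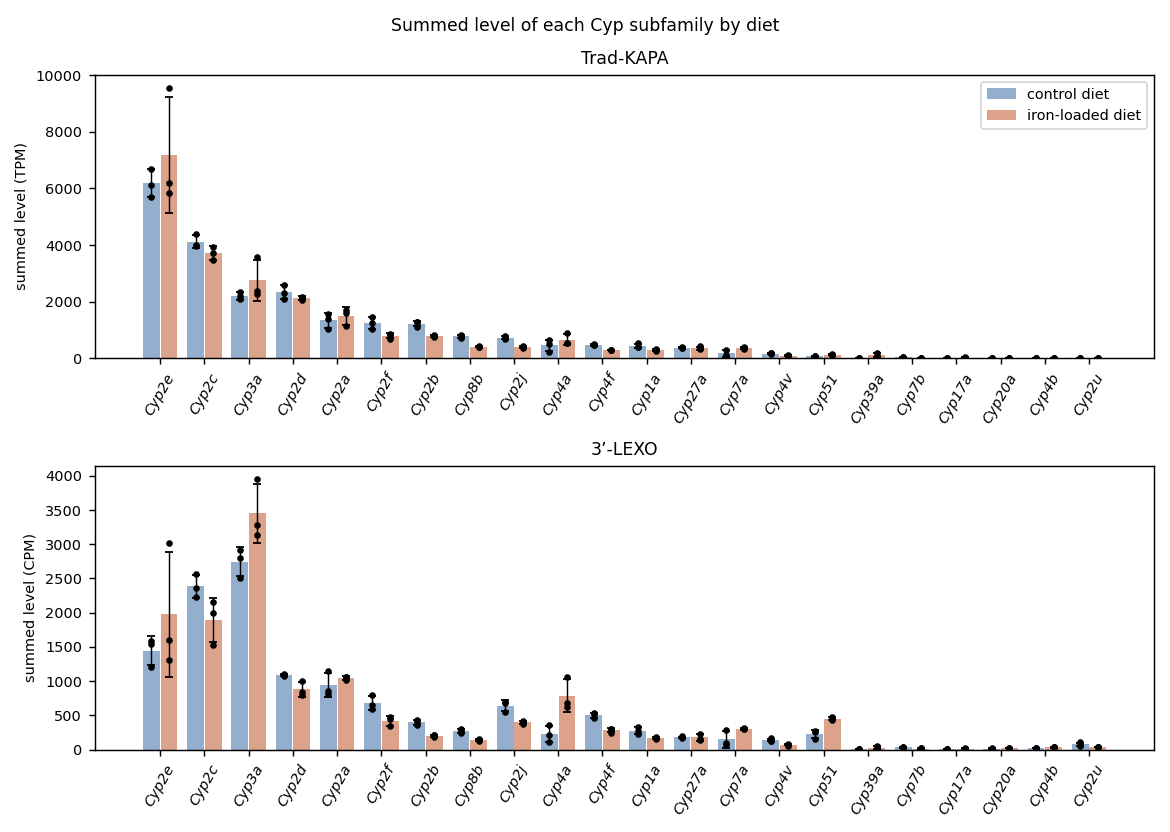
Summed level of each Cyp subfamily with a mean of at least 10 TPM, in Trad-KAPA (top, TPM) and 3’-LEXO (bottom, CPM). Bars are means of 3 mice, error bars are SD and points are mice. The sums of Cyp1a, Cyp2b, Cyp2c, Cyp2f, Cyp2j, Cyp2u, Cyp4f, Cyp4v, Cyp7b and Cyp8b are lower in every iron-loaded mouse in both kits. Those of Cyp7a, Cyp39a and Cyp51 are higher.

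More members fell than rose on the iron-loaded diet. Diets were compared within each kit with edgeR's quasi-likelihood F test over all genes that passed a filter on low counts, with Benjamini-Hochberg adjustment at 0.05, and a log2 fold change is iron-loaded over control throughout. In Trad-KAPA, 23 of 65 tested members differed (35.4%), 5 higher and 18 lower, where 17.1% of all tested genes differed, 8.77% higher and 8.37% lower. In 3’-LEXO, 15 of 59 differed (25.4%), 4 higher and 11 lower, where 6.1% of all tested genes differed, 3.17% higher and 2.92% lower. Without iron-loaded mouse 1 the counts were 29 (6 higher, 23 lower) and 17 (4 higher, 13 lower), and with mice 2 and 3 summed 16 (3 higher, 13 lower) and 10 (3 higher, 7 lower). The excess of lower members was not kept in every 3’-LEXO fit without 1 mouse. There, 1 member was higher and 7 lower without control mouse 1 (326 of 13584 genes in all were called), 2 higher and 3 lower without control mouse 2 (263 of 13540), 3 higher and 2 lower without control mouse 3 (199 of 13588), and 3 higher and 4 lower without iron-loaded mouse 3 (346 of 13671). In Trad-KAPA 5 were higher and 9 lower without control mouse 3 (1033 of 13479). The median log2 fold change of the tested members was -0.23 with Trad-KAPA and -0.20 with 3’-LEXO, and that of all genes 0.02 and 0.01. The bulk libraries cannot tell fewer cells of a type from less RNA per cell.

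The kits made largely the same calls. In total, 14 members differed in both kits, which were 60.9% of the Trad-KAPA calls and 93.3% of the 3’-LEXO calls, and all 14 changed in the same direction. Cyp4a14, Cyp39a1, Cyp26b1 and Cyp51 rose, and Cyp1a2, Cyp2b13, Cyp2d40, Cyp2j5, Cyp2u1, Cyp4f14, Cyp4f15, Cyp4v3, Cyp7b1 and Cyp8b1 fell. Both kits read the same RNA, so the second kit is a technical repeat. The difference between the kits' diet changes was tested over all 12 libraries, and 0 of 65 members passed (edgeR, 0 at an unadjusted p under 0.05, and 0.0% of all genes passed). With the mouse as a block, 0 members passed and 7 had an unadjusted p under 0.05, and 5 of all 14384 genes passed (4 higher, 1 lower). Members called in 1 kit were therefore not shown to differ between the kits.

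**Figure D3:**
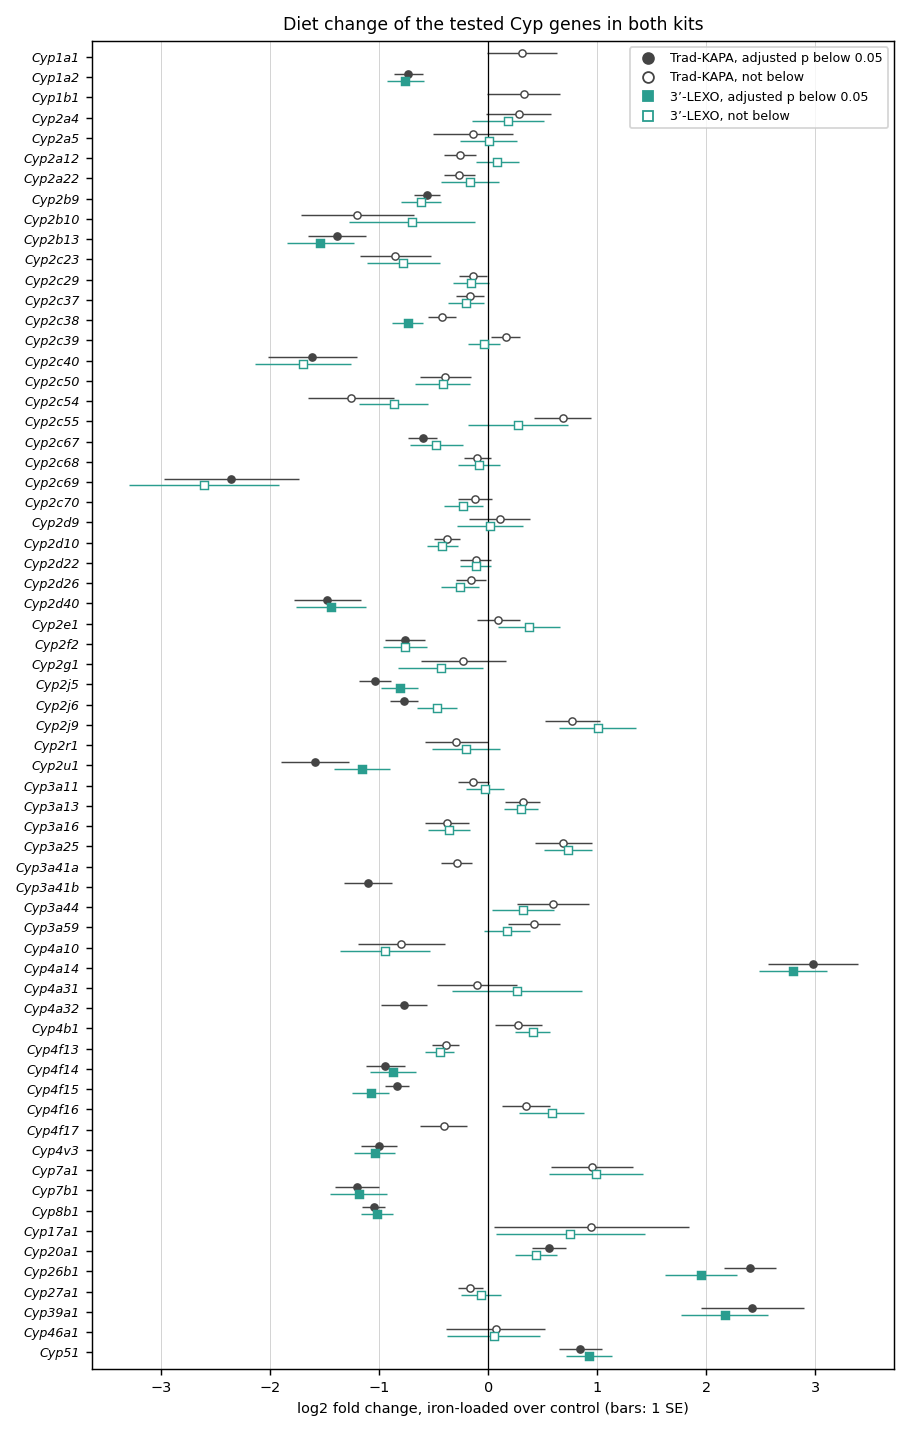
Log2 fold change, iron-loaded over control, of the 65 Cyp genes tested in Trad-KAPA (circles) and of those also tested in 3’-LEXO (squares), with bars of 1 SE. Filled symbols have an adjusted p below 0.05, of which 23 are circles and 15 are squares.

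Among the P450s of bile acid synthesis, the gene that directs the pathway to cholic acid fell while a side branch rose. Cyp8b1, the sterol 12-alpha-hydroxylase needed for cholic acid, was at 813, 796 and 715 TPM in control mice 1, 2 and 3 and at 418, 382 and 413 TPM in iron-loaded mice 1, 2 and 3. In 3’-LEXO it was at 274, 294 and 247 CPM and at 132, 154 and 132 CPM. Every iron-loaded mouse lay far below every control mouse, and the mice of a diet lay close together. Cyp8b1 thus had a log2 fold change of -1.05 ± 0.10 with Trad-KAPA and -1.02 ± 0.15 with 3’-LEXO (edgeR, SE from the F statistic, n = 3 per diet), with adjusted p = 0.00149 and 0.00556. It was called in every fit that left out 1 mouse, in both kits.

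Cyp7b1, the oxysterol 7-alpha-hydroxylase of the alternative pathway, also fell. It was at 24.7, 28.4 and 26.9 TPM in control mice and at 9.03, 13.9 and 14.5 TPM in iron-loaded mice, with no overlap and the lowest value in iron-loaded mouse 1. The log2 fold change was -1.20 ± 0.20 (adjusted p = 0.00908, edgeR) with Trad-KAPA and -1.19 ± 0.26 (adjusted p = 0.0304) with 3’-LEXO, where the call was lost without any 1 of the control mice. Cyp39a1, the 7-alpha-hydroxylase of 24-hydroxycholesterol, rose instead. Its level was 19.6, 11.2 and 23.5 TPM in control mice and 198, 57.2 and 67.5 TPM in iron-loaded mice. The groups did not overlap, and iron-loaded mouse 1 was about as far from its cage mates as these were from the controls. Cyp39a1 had a log2 fold change of 2.42 ± 0.47 (adjusted p = 0.0140) with Trad-KAPA and 2.17 ± 0.40 (adjusted p = 0.0169) with 3’-LEXO, and in each kit the adjusted p rose above 0.05 without control mouse 1 or without control mouse 2.

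The remaining 3 of the 6 bile acid P450s did not pass. Cyp7a1, the rate-limiting enzyme of the classic pathway, was at 94.6, 299.9 and 121 TPM in control mice and at 320, 368 and 384 TPM in iron-loaded mice. All iron-loaded mice were above the controls, but control mouse 2 was nearly as high as they were. The log2 fold change was 0.95 ± 0.38 with Trad-KAPA and 0.99 ± 0.43 with 3’-LEXO, with adjusted p = 0.115 and 0.188, and without control mouse 2 it was 1.60 and 1.85 with adjusted p = 0.0133 and 0.00803. Cyp27a1, the mitochondrial sterol 27-hydroxylase, had 372 ± 16.1 TPM in control and 361 ± 53.3 TPM in iron-loaded mice. Cyp46a1, a cholesterol 24-hydroxylase known from brain, had 7.67 ± 1.07 and 8.58 ± 5.04 TPM. Both overlapped between diets, so of the 6 genes 1 rose and 2 fell in each kit, with a median log2 fold change of -0.05 and -0.01. Cyp51, the lanosterol demethylase of cholesterol synthesis, was the only P450 of the sterol list. It was at 46.9, 75.6 and 70.1 TPM in control mice and at 112, 124 and 137 TPM in iron-loaded mice, without overlap. Its log2 fold change was 0.84 ± 0.20 (adjusted p = 0.0251) and 0.93 ± 0.21 (adjusted p = 0.0371, edgeR). The call was lost in both kits with iron-loaded mice 2 and 3 summed, and in 4 of 6 Trad-KAPA and 5 of 6 3’-LEXO fits that left out 1 mouse.

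**Figure D4:**
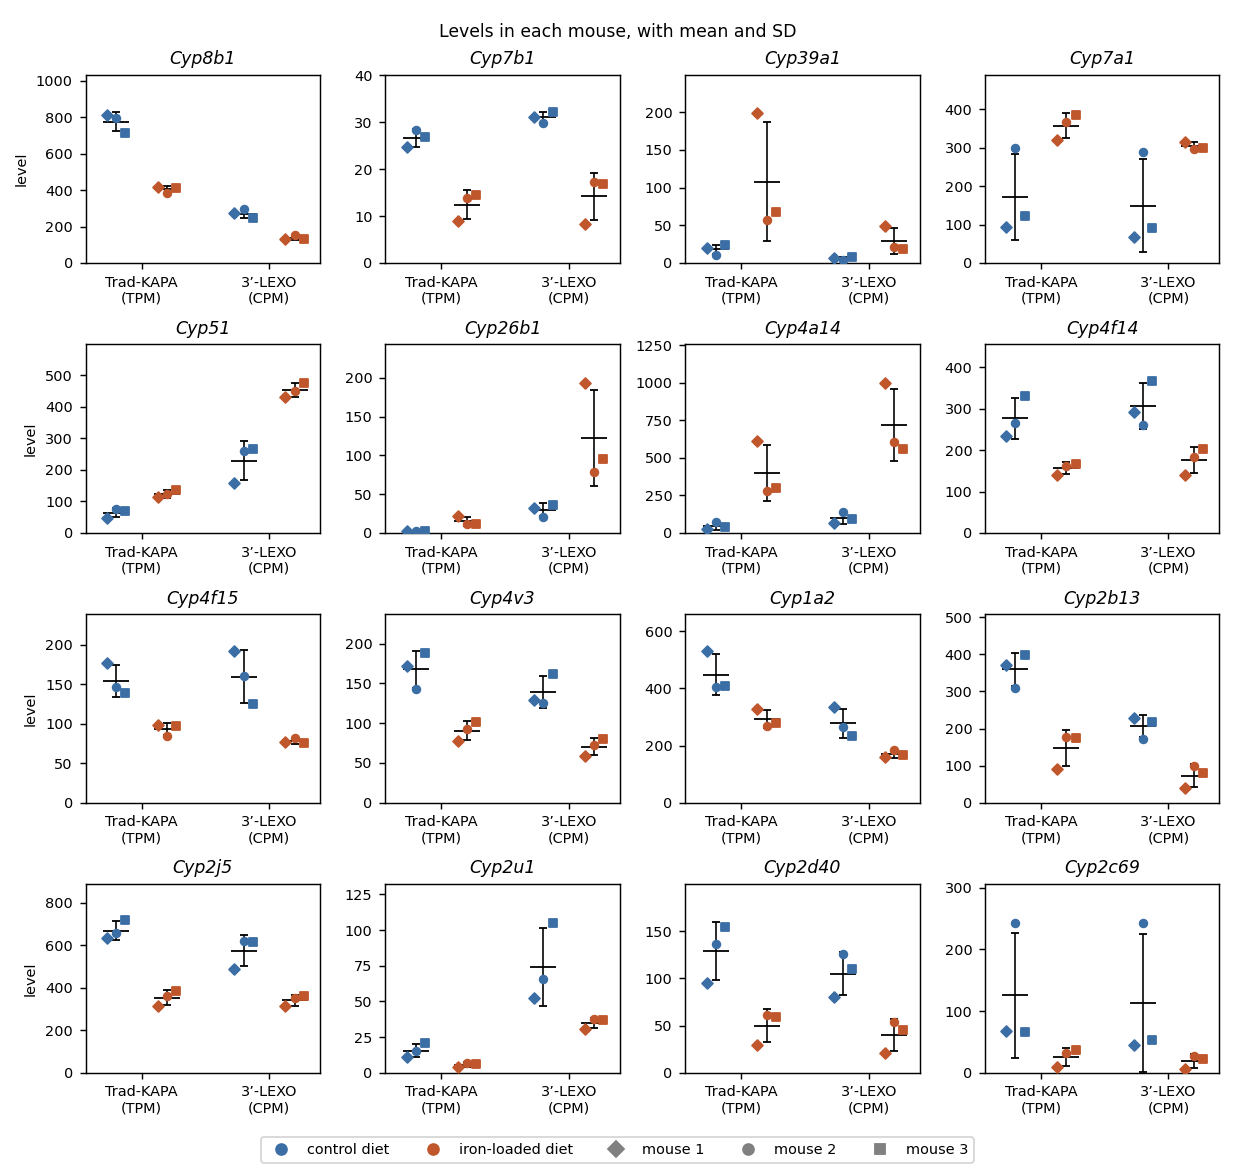
Level of 16 Cyp genes in each mouse, as TPM with Trad-KAPA and CPM with 3’-LEXO, with axes starting at 0. Symbols name the mice within a diet (mouse 1 of a diet is not mouse 1 of the other), lines are means and bars are SD of 3 mice, and iron-loaded mouse 1 (diamond) is the highest for Cyp39a1, Cyp26b1 and Cyp4a14.

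Among P450s that act on fatty acids, a member of the Cyp4a cluster had the largest log2 fold change among the members that rose. Cyp4a14 is an omega-hydroxylase of fatty acids and a classic target of PPAR-alpha. It was at 27.8, 73.7 and 36.5 TPM in control mice and at 613, 281 and 297 TPM in iron-loaded mice, and at 63.1, 141 and 94.2 CPM and at 997, 605 and 561 CPM in 3’-LEXO. The lowest iron-loaded mouse was well above the highest control mouse in both kits. Its log2 fold change was 2.98 ± 0.41 with Trad-KAPA and 2.80 ± 0.31 with 3’-LEXO (adjusted p = 0.00494 and 0.00183, edgeR), and it was called without each mouse in turn. Cyp4a10, the neighbouring gene 22.1 kb away on chromosome 4 and likewise a PPAR-alpha target, had a log2 fold change of -0.80 ± 0.40 and -0.95 ± 0.41 and did not pass (adjusted p = 0.193 and 0.190). Its control mice were spread widely, at 119, 462 and 317 TPM, and the iron-loaded mice lay at 204, 175 and 185 TPM within that spread. Cyp4a32 fell in Trad-KAPA, by 0.77 ± 0.21 on the log2 scale (adjusted p = 0.0380), a call that was lost without any 1 of the 6 mice, and in 3’-LEXO it had too few counts to be tested. Cyp4a31 did not pass in either kit. Of the 4 PPAR-alpha target P450s, 1 rose and 1 fell in Trad-KAPA, and of 3 tested in 3’-LEXO 1 rose.

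Of the Cyp4f enzymes, which hydroxylate leukotrienes and fatty acids, 2 of 5 tested with Trad-KAPA and 2 of 4 tested with 3’-LEXO fell, as did Cyp4v3. Cyp4f14 was at 234, 266 and 332 TPM in control mice and at 140, 162 and 167 TPM in iron-loaded mice, with log2 fold changes of -0.94 ± 0.18 and -0.87 ± 0.21 (adjusted p = 0.0128 and 0.0417). In 3’-LEXO it kept its call without iron-loaded mouse 1 and lost it without any other mouse, with mice 2 and 3 summed and with the replicate block. Cyp4f15 was at 177, 147 and 139 TPM and at 98.6, 84.1 and 96.7 TPM, with -0.84 ± 0.11 and -1.08 ± 0.17 (adjusted p = 0.00423 and 0.00806), and kept its call without each mouse in both kits. The diets did not overlap for either gene, and the other tested Cyp4f genes did not pass. Among those, Cyp4f16 had positive values, 0.35 ± 0.22 and 0.58 ± 0.30, and Cyp4f13 negative ones, -0.39 ± 0.12 and -0.45 ± 0.13. Cyp4v3, a fatty acid omega-hydroxylase whose human counterpart is mutated in a retinal disease, was at 171, 143 and 188 TPM in control mice and at 77.5, 92.9 and 101 TPM in iron-loaded mice. It fell by 1.00 ± 0.17 with Trad-KAPA and by 1.04 ± 0.19 with 3’-LEXO on the log2 scale (adjusted p = 0.00923 and 0.0153), and its groups were separate as well. The 3’-LEXO call was lost without control mouse 3.

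The epoxygenases of the Cyp2j subfamily, which make epoxides of arachidonic acid, fell in part. Cyp2j5, the abundant liver form, was at 634, 657 and 720 TPM in control mice and at 314, 362 and 384 TPM in iron-loaded mice. The values formed tight and separate groups, with a log2 fold change of -1.04 ± 0.15 with Trad-KAPA and -0.81 ± 0.17 with 3’-LEXO (adjusted p = 0.00532 and 0.0254). The 3’-LEXO calls of Cyp2j5 and Cyp2u1 were lost without control mouse 2, control mouse 3 or iron-loaded mouse 3, and with mice 2 and 3 summed. Cyp2j6 fell in Trad-KAPA, by 0.77 ± 0.13 (adjusted p = 0.00857), and had -0.47 ± 0.18 in 3’-LEXO (adjusted p = 0.15). Cyp2j9 had positive values of 0.77 ± 0.25 and 1.00 ± 0.35 that did not pass (adjusted p = 0.0680 and 0.113), so the subfamily moved unevenly. Cyp2u1, which hydroxylates long-chain fatty acids, fell, from 11.0, 15.0 and 20.7 TPM in control mice to 3.77, 7.12 and 5.85 TPM in iron-loaded mice. Its log2 fold change was -1.59 ± 0.31 (adjusted p = 0.0144) with Trad-KAPA and -1.16 ± 0.26 (adjusted p = 0.0335) with 3’-LEXO.

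Of the P450s that clear retinoic acid, Cyp26b1 rose. It was at 2.98, 2.58 and 2.18 TPM in control mice and at 21.5, 11.3 and 12.1 TPM in iron-loaded mice. The control mice were close together and iron-loaded mouse 1 was the highest, as for Cyp39a1 and Cyp4a14. The log2 fold change was 2.40 ± 0.24 with Trad-KAPA and 1.95 ± 0.33 with 3’-LEXO (adjusted p = 0.00149 and 0.0123, edgeR), and the 3’-LEXO call was lost without control mouse 1 or control mouse 2. The summed level of macrophage markers was also higher on the iron-loaded diet. The 8 markers summed to 409 to 648 TPM in control and 765 to 859 TPM in iron-loaded mice, and to 882 to 1157 and 1163 to 1411 CPM in 3’-LEXO, and Marco, a scavenger receptor of macrophages, was called higher in both kits. Marco was at 12.8, 11.5 and 6.17 TPM in control and at 138, 73.2 and 75.5 TPM in iron-loaded mice, with iron-loaded mouse 1 again the highest. Of the 8, 2 rose with Trad-KAPA (Marco and Vsig4) and 1 with 3’-LEXO (Marco). Their median log2 fold change was 0.39 and 0.15, far below that of Marco at 3.10 ± 0.29 and 2.82 ± 0.33. Adgre1 had 0.08 ± 0.30 and -0.31 ± 0.23, and the rest had positive values in both kits. The 6 stellate cell markers overlapped between diets, at 77.8 to 111 TPM and 102 to 106 TPM, and 1 of them (Des) fell in Trad-KAPA. Cholangiocyte markers summed to 31.9 to 36.3 TPM in control and 49.5 to 59.1 TPM in iron-loaded mice, where 1 of 3 tested (Spp1) rose in both kits. Endothelial markers summed to 124 to 167 and 162 to 199 TPM, and lymphocyte markers to 6.74 to 11.4 and 7.84 to 11.3 TPM, both with overlap. With 3’-LEXO the endothelial sums were lower in every iron-loaded mouse, at 282 to 297 CPM against 315 to 395 CPM. Of the 6 endothelial markers, Lyve1 rose in both kits, with log2 fold changes of 1.77 ± 0.22 and 1.16 ± 0.28 (adjusted p = 0.00374 and 0.0435, edgeR). Cdh5 rose in Trad-KAPA and Stab2 fell in 3’-LEXO. Of the lymphocyte markers, 1 of 6 tested (Ptprc) rose in Trad-KAPA, and 0 of 4 passed in 3’-LEXO. The part of other cell types in the levels of Cyp26b1 was not tested.

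P450s of drug and steroid metabolism fell in several clusters, while the most abundant one, Cyp2e1, did not pass the test. Cyp1a2, which oxidises caffeine and aromatic amines and is a target of the aryl hydrocarbon receptor, was at 531, 406 and 407 TPM in control mice and at 328, 268 and 280 TPM in iron-loaded mice. These groups did not overlap, and the log2 fold change was -0.73 ± 0.13 with Trad-KAPA and -0.76 ± 0.17 with 3’-LEXO (adjusted p = 0.0106 and 0.0330). In 3’-LEXO the call was lost without any 1 of the control mice, without iron-loaded mouse 3, with mice 2 and 3 summed and with the replicate number as a block. Cyp1a1 and Cyp1b1, the other targets of that receptor, had under 1 TPM in every mouse and did not pass in Trad-KAPA.

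In the Cyp2b subfamily, known for its induction through CAR, Cyp2b13 fell most. It was at 371, 310 and 398 TPM in control mice and at 91.9, 177 and 174 TPM in iron-loaded mice, with log2 fold changes of -1.39 ± 0.27 and -1.54 ± 0.31 (adjusted p = 0.0137 and 0.0228). Its call was lost without control mouse 3 in each kit, and in 3’-LEXO also without control mouse 1, control mouse 2 or iron-loaded mouse 3. Cyp2b9, with the nearly identical promoter window shown above, was at 898, 796 and 878 TPM and at 724, 568 and 601 TPM. The groups were separate for both genes, but iron-loaded mouse 1 was the lowest of its group for Cyp2b13 and the highest for Cyp2b9. Cyp2b9 had -0.56 ± 0.12 (adjusted p = 0.0204) with Trad-KAPA and -0.61 ± 0.19 (adjusted p = 0.0791) with 3’-LEXO, and its Trad-KAPA call held only without control mouse 2 or iron-loaded mouse 1. Cyp2b10, the member most used as a sign of CAR activity, was low, at 2.18 to 12.2 TPM, and did not pass. Of the 5 CAR target P450s, 0 rose and 2 fell in Trad-KAPA, and 0 rose and 1 fell in 3’-LEXO. Those that fell, Cyp2b9 and Cyp2b13, are also on the female-predominant list below. The other CAR targets did not pass, with positive values for Cyp2c55, 0.68 ± 0.26 and 0.27 ± 0.46. Cyp2c29 had -0.14 ± 0.13 and -0.15 ± 0.17, and Cyp2b10 had -1.20 ± 0.52 and -0.70 ± 0.58.

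In the Cyp2c subfamily on chromosome 19, 3 of 13 tested genes fell with Trad-KAPA and 1 with 3’-LEXO, and none rose. Of all tested genes, 8.37% and 2.92% fell. Cyp2c23, which starts at 44005022, lies apart from the cluster that holds the other Cyp2c genes. Cyp2c69 was at 67.3, 242 and 66.8 TPM in control mice and at 9.54, 32.4 and 36.1 TPM in iron-loaded mice. Cyp2c40 was at 124, 214 and 153 TPM and at 24.0, 72.1 and 75.1 TPM. For both genes control mouse 2 was the highest, iron-loaded mouse 1 the lowest, and the diets did not overlap. Cyp2c69 fell by 2.35 ± 0.62 (adjusted p = 0.0353) and Cyp2c40 by 1.61 ± 0.41 (adjusted p = 0.0321) on the log2 scale in Trad-KAPA, and in 3’-LEXO their log2 fold changes were -2.61 ± 0.69 and -1.70 ± 0.44 with adjusted p = 0.0542 and 0.0509. The Trad-KAPA call of Cyp2c69 was kept in 2 and that of Cyp2c40 in 3 of the 6 fits without 1 mouse. Cyp2c67 fell in Trad-KAPA only (-0.60 ± 0.13, adjusted p = 0.0195) and Cyp2c38 in 3’-LEXO only (-0.74 ± 0.14, adjusted p = 0.0190). The call of Cyp2c67 was lost without control mouse 2, control mouse 3 or iron-loaded mouse 2, and that of Cyp2c38 without any 1 control mouse or iron-loaded mouse 3. Cyp2c39 was the most abundant of the subfamily in Trad-KAPA but below Cyp2c70, Cyp2c29, Cyp2c23 and Cyp2c50 in 3’-LEXO. It had 944 ± 96.3 TPM in control and 1144 ± 44.1 TPM in iron-loaded mice and did not pass.

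Single members fell in the Cyp2d, Cyp2f and Cyp3a subfamilies. Cyp2d40 was at 95.4, 137 and 155 TPM in control mice and at 29.8, 60.9 and 59.1 TPM in iron-loaded mice, with log2 fold changes of -1.47 ± 0.31 and -1.44 ± 0.32 (adjusted p = 0.0179 and 0.0334). It lost its call without control mouse 2 or 3 in each kit, and in 3’-LEXO also without control mouse 1 or iron-loaded mouse 3. Cyp2d26, far more abundant, had 1383 ± 150 TPM in control and 1342 ± 36.4 TPM in iron-loaded mice and did not pass. Cyp2f2, a marker of periportal hepatocytes that activates naphthalene, was at 1242, 1024 and 1472 TPM and at 691, 828 and 866 TPM, which did not overlap. It fell by 0.76 ± 0.19 in Trad-KAPA (adjusted p = 0.0292) and had -0.76 ± 0.20 in 3’-LEXO (adjusted p = 0.0560), with the Trad-KAPA call kept only without control mouse 2 or iron-loaded mouse 1. Cyp3a41b fell by 1.10 ± 0.22 in Trad-KAPA (adjusted p = 0.0146), on counts limited to the few stretches that it does not share, lost that call without control mouse 2 or 3, and was not tested in 3’-LEXO. Cyp20a1, an enzyme without an established substrate, rose in Trad-KAPA by 0.56 ± 0.16 (adjusted p = 0.0424), had 0.44 ± 0.19 in 3’-LEXO (adjusted p = 0.187), and in Trad-KAPA kept its call only without iron-loaded mouse 1.

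Cyp2e1, Cyp3a11, Cyp2a4 and the low Cyp17a1 overlapped between diets in both kits. Cyp2e1 was at 6127, 5710 and 6692 TPM in control mice and at 9546, 5847 and 6188 TPM in iron-loaded mice. Its higher mean on the iron-loaded diet came from mouse 1, and without that mouse the log2 fold change went from 0.09 ± 0.20 to -0.11 with Trad-KAPA and from 0.38 ± 0.28 to -0.03 with 3’-LEXO. Cyp3a11 had 918 ± 8.97 TPM in control and 909 ± 167 TPM in iron-loaded mice. Cyp2a4, a steroid 15-alpha-hydroxylase, spread from 361 to 858 TPM within the control mice alone and had 627 ± 251 and 812 ± 184 TPM. Cyp17a1, the steroid 17-alpha-hydroxylase, was at 15.1, 3.05 and 11.5 TPM in control mice and at 54.1, 4.17 and 6.13 TPM in iron-loaded mice, so that its log2 fold change of 0.95 ± 0.89 became -1.03 without iron-loaded mouse 1. Cyp4b1, also low, had 10.3 ± 1.70 and 13.3 ± 3.08 TPM with overlap, and with 3’-LEXO 26.0 ± 0.787 CPM in control and 36.0 ± 6.06 CPM in iron-loaded mice without overlap. None of these genes passed in either kit.

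By position in the lobule and by sex, the lists moved in part. Of the 6 pericentral P450s only Cyp1a2 fell in each kit, and the median log2 fold change was -0.14 with Trad-KAPA and -0.01 with 3’-LEXO. Of the 2 periportal ones, Cyp2f2 fell in Trad-KAPA. Of the 10 female-predominant P450s, 5 fell in Trad-KAPA (Cyp2b9, Cyp2b13, Cyp2c40, Cyp2c69 and Cyp3a41b) and 1 of 8 tested fell in 3’-LEXO (Cyp2b13), and 0 rose. Of all tested genes, 8.37% fell with Trad-KAPA and 2.92% with 3’-LEXO. The counts of Cyp2c40, Cyp2c69 and Cyp3a41b are uncertain, as described above. Cyp2a4, Cyp3a44 and Cyp17a1 of this list had positive log2 fold changes in both kits, which did not pass. Of the 3 male-predominant P450s that were tested, Cyp7b1 and Cyp2u1 fell in both kits and Cyp2d9 did not pass. The medians were -0.47 and -0.49 for the female-predominant list and -1.20 and -1.16 for the male-predominant list, against 0.02 and 0.01 for all genes. The steroid hormone and vitamin D lists each had 1 tested gene, Cyp17a1 and Cyp2r1, and neither passed. The P450s that carry other symbols, Tbxas1 and Ptgis, did not pass either.

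Partners of the P450s changed in both directions. Of 13 tested electron donors and partners, 4 rose and 4 fell in Trad-KAPA, and 2 rose and 2 fell in 3’-LEXO. Of all tested genes, 8.77% rose and 8.37% fell in Trad-KAPA, and 3.17% rose and 2.92% fell in 3’-LEXO. Alas1, the first enzyme of heme synthesis, was at 47.0, 47.0 and 21.6 TPM in control mice and at 90.1, 117 and 120 TPM in iron-loaded mice and rose by 1.41 ± 0.27 and 1.56 ± 0.23 on the log2 scale (adjusted p = 0.0139 and 0.00556). Ephx1, the microsomal epoxide hydrolase, rose by 1.07 ± 0.14 and 1.00 ± 0.16 (adjusted p = 0.00374 and 0.00888). Ephx2, the soluble epoxide hydrolase, which opens the fatty acid epoxides made by Cyp2c and Cyp2j enzymes, fell by 1.12 ± 0.17 and 1.02 ± 0.20 (adjusted p = 0.00644 and 0.0192). Cyb5b, an outer mitochondrial cytochrome b5, fell by 0.92 ± 0.17 and 1.01 ± 0.19 (adjusted p = 0.0128 and 0.0179). Por, the reductase that serves the microsomal P450s, had 244, 285 and 125 TPM in control and 783, 402 and 410 TPM in iron-loaded mice, and rose in Trad-KAPA (1.17 ± 0.32, adjusted p = 0.0394) with 1.01 ± 0.26 in 3’-LEXO (adjusted p = 0.0536).

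Among 26 regulators of P450 transcription, 2 rose and 4 fell in Trad-KAPA, and 2 rose and 1 fell in 3’-LEXO. Of all tested genes, 8.77% rose and 8.37% fell in Trad-KAPA, and 3.17% rose and 2.92% fell in 3’-LEXO. Whether the regulators as a list differ from all genes was not tested. Only Nr0b2 was called in both kits. Nr0b2, also called SHP, is a repressor that FXR induces and that acts on Cyp7a1 and Cyp8b1. It was at 41.5, 44.3 and 59.7 TPM in control mice and at 12.2, 15.7 and 17.7 TPM in iron-loaded mice, with log2 fold changes of -1.79 ± 0.22 and -1.71 ± 0.24 (adjusted p = 0.00363 and 0.00440). Nr1h4, which encodes FXR, Ppara and Hnf4a had values of 0.12 ± 0.11, -0.05 ± 0.23 and 0.03 ± 0.13 in Trad-KAPA and did not pass in either kit. Nr1i3, which encodes CAR, fell in Trad-KAPA by 0.39 ± 0.11 (adjusted p = 0.0487) and had -0.30 ± 0.16 in 3’-LEXO (adjusted p = 0.273).

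The level of a member could differ widely between the kits. The ratio of 3’-LEXO CPM to Trad-KAPA TPM was taken per mouse for the 64 members with more than 3 counts in every Trad-KAPA and at least 1 in every 3’-LEXO library. Its median on the log2 scale was -0.73 for the members and 0.66 for all 12892 genes with such counts. It was below -2 in 11 of the 64 members (17.2%) and in 3.54% of all genes. Cyp4a32 had the lowest ratio, with a level 248-fold lower in 3’-LEXO, and was followed by Cyp3a41a with 96.8-fold, Cyp4f17 with 29.4-fold and Cyp3a16 with 28.5-fold. Of the 50-base stretches at the 3′ end, 33.3% were its own in Cyp4a32 and 0% in Cyp3a41a, but 80.5% in Cyp3a16 and 100% in Cyp4f17. Low ratios thus occurred both in members with a shared and in members with an own 3′ end. At the other end, Cyp26b1 was 9.47-fold and Cyp2u1 5.53-fold higher in 3’-LEXO, and every stretch of their 3′ ends was their own. The annotated 3′ ends are those of the reference, and whether they are the ends used in these livers was not tested.

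**Figure D5:**
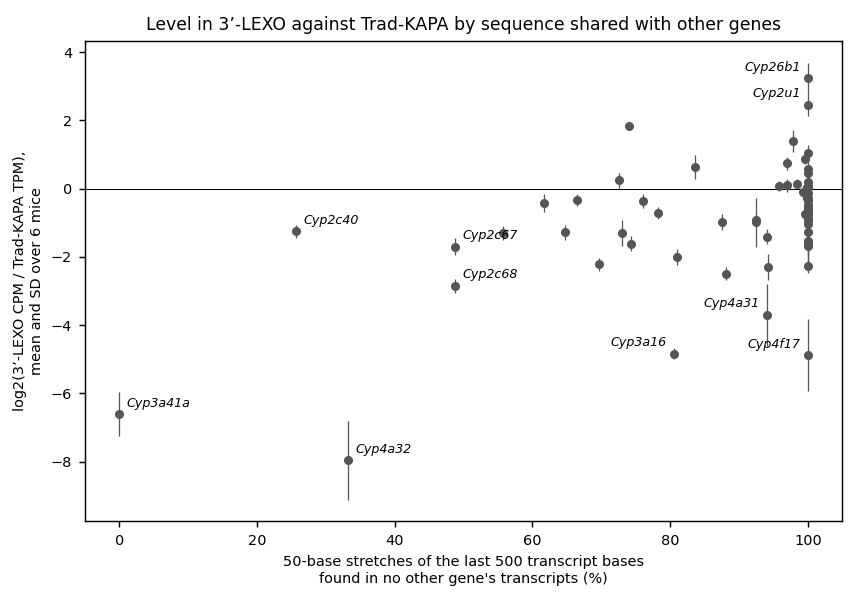
Log2 of the 3’-LEXO CPM over the Trad-KAPA TPM of 64 Cyp genes (mean and SD over 6 mice) against the share of 50-base stretches in the last 500 transcript bases that no other gene's transcripts hold. Cyp3a41a and Cyp4a32, with 0% and 33.3%, have the lowest ratios, and the genes at 100% range from Cyp4f17 to Cyp26b1.

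Calls were also counted by chromosome, which pools clusters that lie far apart. The 84 members lay on 14 chromosomes, with 17 on chromosome 19, 12 on chromosome 7 and 11 on chromosome 4. On chromosome 4, which holds the Cyp2j, Cyp4a, Cyp4b and Cyp7a genes, 1 of 9 tested genes rose and 3 fell in Trad-KAPA. On chromosome 17, with Cyp4f genes and Cyp39a1, 1 of 7 rose and 2 fell, and on chromosome 15, with the Cyp2d genes, 1 of 5 fell. The gene that rose on chromosome 17 was Cyp39a1, which starts at 43667425, whereas the Cyp4f genes there end by 32947402. On chromosomes 19 and 7 none of the 14 and 11 genes tested with Trad-KAPA rose and 3 on each fell. With 3’-LEXO the same numbers were tested there, none rose and only 1 on each fell. That kit had 1 of 8 higher and 1 lower on chromosome 4. It had 1 of 5 higher and 2 lower on chromosome 17, and 1 of 5 lower on chromosome 15. For scale, 27.7% of the tested members fell with Trad-KAPA, where 8.37% of all genes did. With 3’-LEXO these shares were 18.6% and 2.92%. Reads of the 10 Cyp pseudogenes in the table were not counted as members. Among these, Cyp2d37-ps fell in Trad-KAPA, with 773, 1036 and 900 counts in control mice and 228, 432 and 392 in iron-loaded mice (log2 fold change -1.35, adjusted p = 0.0128), and had -0.98 in 3’-LEXO (adjusted p = 0.128).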

How the data were processed

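Liver RNA of 6 mice was measured in 12 libraries. The authors mapped single-end reads with STAR 2.5.3a to GRCm38 (mm10) and deposited raw counts per gene of uniquely mapped reads, and the counting program and annotation release are not given in the sources used here. All columns of the table were mapped to a sample. Symbols, gene types, lengths and transcript sequences came from GENCODE M21 (26949 of 27022 identifiers matched). Counts were tested within each kit with edgeR 4.0.16 (R 4.3.3, limma 3.58.1): TMM, filterByExpr, quasi-likelihood F test, Benjamini-Hochberg adjustment over all tested genes, threshold 0.05. The SE is the size of the log2 fold change over the square root of F. Groups are the kit and diet of the labels, with 3 mice each. Nothing in the labels says that the mice differ in anything but diet and cage, and p-values measure the spread between these mice. The same number in both kits is the same mouse (r of deviations from the group mean 0.44 to 0.77), but numbers do not pair mice across diets (-0.17 to 0.10). TPM used merged exon length, and sharing between genes was measured with 50-base stretches of all GENCODE transcripts. Fits were tested on simulated data. Python 3.11.15, pandas 2.3.3, numpy 2.4.6 and scipy 1.17.1 were used. Alternatives were DESeq2 1.42.0, its size factors, library totals alone, other filters, 10000000 counts per library, a replicate block, leaving out each mouse, other denominators and lengths, and, chosen after seeing the data, iron-loaded mice 2 and 3 summed and lengths cut to unshared stretches.

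Named genes were members called in both kits, the most abundant member of each subfamily with at least 10 TPM, members that pass the test of the difference between the kits (none), members called in 1 kit with a log2 fold change of at least 1 in size, the bile acid list, and partners and regulators called in both kits. Other genes were named after their values were seen, to account for calls in 1 kit and for lists. The members and lists were chosen with earlier results of these data known.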

Additional observations from a re-analysis of the deposited data

How the results depend on the processing

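The 23 and 15 members that differed in Trad-KAPA and 3’-LEXO became 28 and 19 with DESeq2, 23 and 15 with its size factors in edgeR, 24 and 19 with library totals alone, 23 and 15 with a mean of at least 10 counts or at 10000000 counts per library, and 30 and 26 with no filter. Apart from Cyp20a1 at equal depth, all calls were kept in these fits. With library totals alone, all genes split into 1339 higher and 838 lower in Trad-KAPA, against 1154 and 1101. Without 1 mouse the counts ranged from 14 to 29 and from 5 to 17, and 11 and 3 members were called in all 6 fits. The numbers do not pair mice, and with a replicate block 26 and 14 members differed, with Cyp2c23, Cyp2c54 and Cyp7a1 gained in Trad-KAPA and, in 3’-LEXO, Cyp2c40 and Cyp2c69 gained and Cyp1a2, Cyp2c38 and Cyp4f14 lost.

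The named genes that changed sign did not pass in the main comparison. The log2 fold change of Cyp46a1 became -0.16 with mice 2 and 3 summed in both kits, -0.11 and -0.0882 with the replicate block and -0.0326 at equal depth in Trad-KAPA, and without 1 mouse it lay between -0.23 and 0.51 (Trad-KAPA) and between -0.28 and 0.49 (3’-LEXO). In 3’-LEXO that of Cyp3a11 was 0.00376 with mice 2 and 3 summed and 0.0323 with library totals alone (-0.13 to 0.0425 without 1 mouse), that of Cyp27a1 0.0105 with them summed (-0.27 to 0.0447) and that of Cyp2c39 0.0196 with library totals alone (-0.12 to 0.0223). Without 1 mouse, Cyp17a1 ranged from -1.03 to 1.42 and from -0.86 to 1.16, Cyp2e1 from -0.11 to 0.19 and from -0.0315 to 0.58, and Cyp2a4 in 3’-LEXO from -0.13 to 0.67. The cause was not tested.

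On reads of protein-coding genes, the Cyp share of the Trad-KAPA control mice was 2.09%. With lengths cut to unshared stretches, the summed level was 27705 TPM against 22207, since shared reads were not counted. Stretches unique in the genome were not run. The 19 members under the filter had too few counts at this depth to be tested. Cyp4a32, Cyp3a41a and Cyp3a41b had at most 9 counts in any 3’-LEXO library, and the cause was not tested.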
